A study of Arabidopsis thaliana with 7 samples.

Results

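The genes described here encode the nuclear subunits of the photosynthetic light reactions in *Arabidopsis thaliana*: the light-harvesting proteins of photosystem I (LHCA) and photosystem II (LHCB), the core subunits of photosystem I (PSA), the extrinsic and small subunits of photosystem II (PSB), the γ and δ subunits of the chloroplast ATP synthase, and the carriers that pass electrons from the cytochrome b6f complex to NADP+. Members were chosen by gene identifier from a list of these subunits and their copies, with no threshold on measured values, though earlier results of these data were known when the list was drawn up. All 53 were found among the 33602 genes of the count table. RNA was sequenced from 3 replicate samples of wild-type Col-0, the reference accession, taken as seedlings that had spent 14 days on MS medium at 22 °C under a cycle of 16 h light and 8 h dark, with no other treatment stated. Whether each replicate is a separate batch of plants is not stated in the labels, so spread between them may be technical. The series has 4 chromatin samples, not analysed here, and no further RNA group, so nothing below is a contrast between conditions.

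In the light reactions, antenna proteins bind chlorophyll and carotenoids and pass excitation energy to the reaction centres. Photosystem II draws electrons from water, the cytochrome b6f complex and plastocyanin carry them to photosystem I, and ferredoxin with its reductase delivers them to NADP+, while the ATP synthase uses the proton gradient that builds up. The reaction centre proteins themselves are encoded in the chloroplast, whereas the antenna and most of the peripheral subunits are encoded in the nucleus, often by several copies, and imported.

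The libraries held 30946664, 18493022 and 20764970 counts in replicates 1, 2 and 3. Levels are given as CPM (counts scaled to a common library total after TMM adjustment) and as mean ± SD over the 3 libraries. CPM is not corrected for transcript length, as transcript lengths were not used, so a CPM value of one gene set beside that of another is a comparison of counts collected and not of transcript numbers. The rRNA genes took 1.201%, 1.39% and 2.97% of counts in replicates 1, 2 and 3, so replicate 3 stood apart in that respect. All 279 chloroplast and mitochondrial genes were listed at 0 in every library, so the plastid-encoded partners of these subunits had no values. Markers of green leaf tissue were abundant, with RBCS1A, RCA and CA1 at 10326 ± 475, 4510 ± 125 and 3849 ± 116 CPM. The root-expressed gene PYK10 stood at 2385 ± 9.71 CPM. The other root markers were far lower, with PHT1;1, SCR and WOX5 at 42.6 ± 0.860, 39.2 ± 0.934 and 0.408 ± 0.354 CPM. Markers of seed and pollen were mixed. The seed storage protein genes CRA1 and CRC (CRU3 in the gene table) stood at 16.2 ± 1.129 and 9.07 ± 2.63 CPM, and the pollen tubulin gene TUA1 at 40.2 ± 2.66 CPM. ANX1 of pollen had 0, 0 and 4 counts, while LEC1 of embryos and ANX2 of pollen were at 0 counts, which in the shallowest library leaves room for a level of 0.160 CPM. In whole seedlings, fewer green cells and less RNA per green cell cannot be told apart.

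The nuclear genes of the light reactions were abundant almost throughout. Of the 53 genes, all had a mean of 1 CPM or more, 48 reached 100 CPM and 22 reached 1000 CPM. Of the 33323 nuclear genes of the table, 56.8%, 5.95% and 0.237% did so. Their median was 710 CPM, where the median of the 18915 genes with a mean of at least 1 CPM was 19.1 CPM. Together they collected 5.79%, 5.37% and 5.42% of all counts in replicates 1, 2 and 3, with 95% Wilson bounds of 5.79 to 5.80%, 5.36 to 5.38% and 5.41 to 5.42% that cover counting error only. The range was wide, from LHCB1.3 at 7065 ± 406 CPM to LHCB2.3 at 12.6 ± 1.204 CPM. The 5 genes under 100 CPM were all light-harvesting genes of the photosystem II type: LHCB2.1, LHCB2.2, LHCB2.3, LHCB4.3 and LHCB7. The limit on counts of close copies given below applies to the LHCB2 genes.

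**Figure D1:**
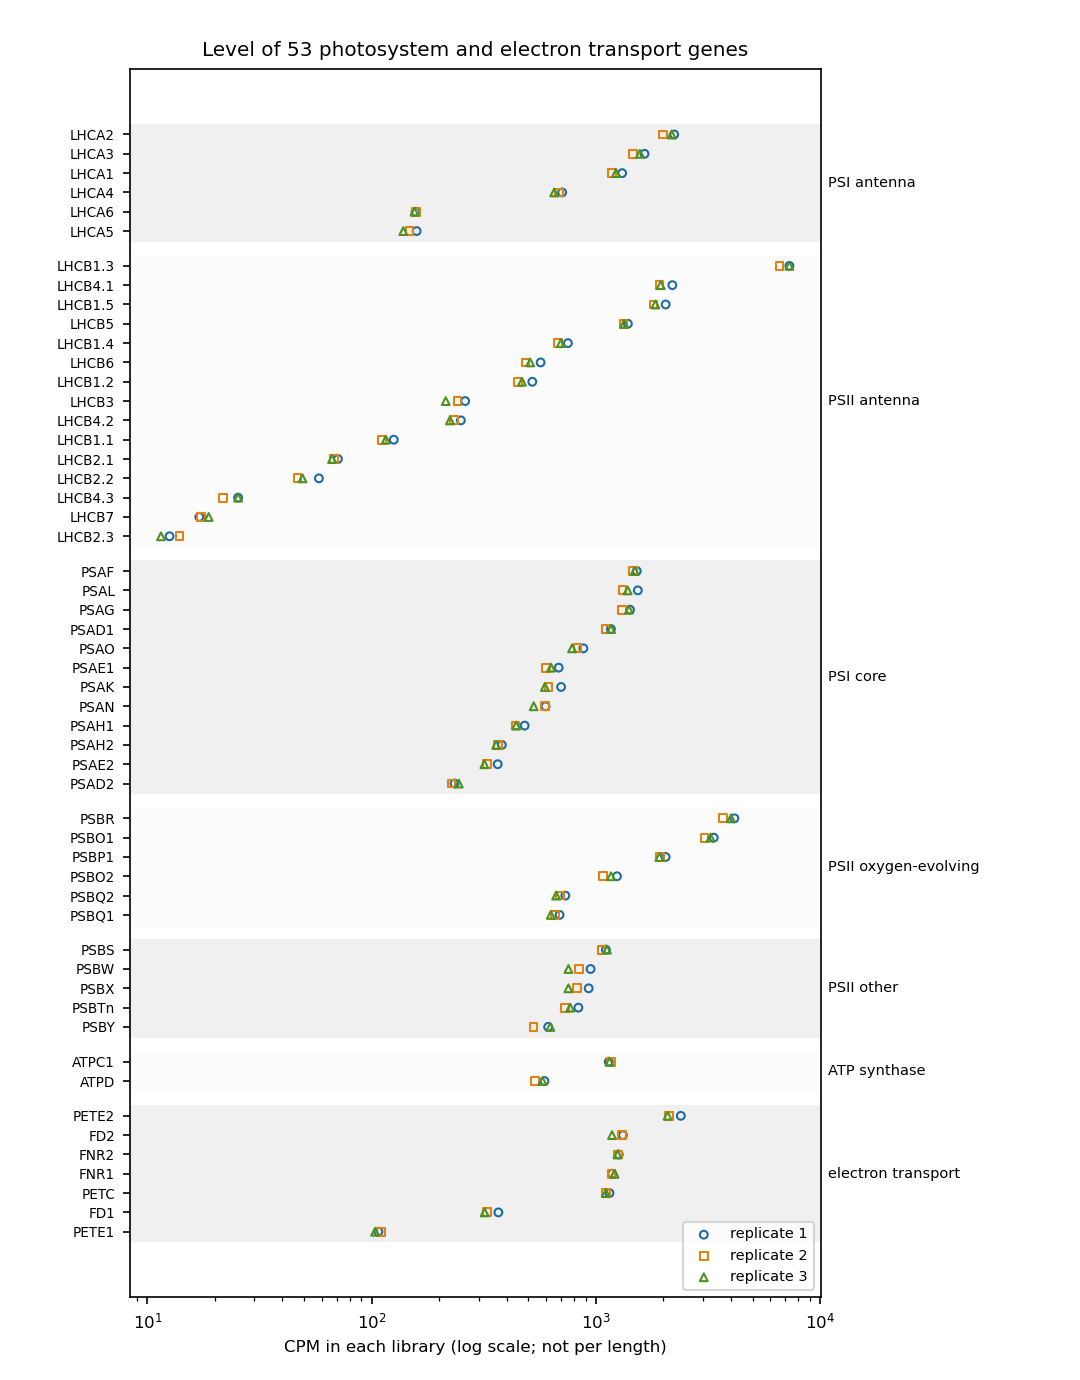
CPM of each of the 53 genes in each of the 3 libraries on a log axis, grouped by role and ordered by mean within a role. Within the photosystem II antenna the genes run from 12.6 to 7065 CPM, while the photosystem I core genes lie between 235 and 1494 CPM.

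By role, the photosystem II antenna collected the most counts, 26.8 ± 0.330% of those of the 53 genes (SD, n = 3). It was followed by the oxygen-evolving and associated subunits of photosystem II at 21.1 ± 0.150%, the photosystem I core at 17.2 ± 0.126% and the soluble and membrane electron carriers at 13.6 ± 0.358%. The photosystem I antenna held 10.7 ± 0.110%, the remaining photosystem II subunits 7.50 ± 0.151% and the ATP synthase pair 3.12 ± 0.121%. These shares thus moved by less than 1 percentage point between libraries, and the order of the roles by counts was the same in each.

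The major photosystem II antenna, LHCII, is a trimer built from LHCB1, LHCB2 and LHCB3 proteins. LHCB1.3 (AT1G29930), listed as CAB1 in the gene table, stood at 7301, 6596 and 7298 CPM in replicates 1, 2 and 3. LHCB1.5 (AT2G34420) followed at 2049, 1808 and 1844 CPM, and LHCB1.4 (AT2G34430) stood at 750, 680 and 698 CPM. The ranges of these 3 genes did not overlap. LHCB1.2 (AT1G29910) stood at 521, 449.5 and 468 CPM and LHCB1.1 (AT1G29920) at 126, 111 and 116 CPM. All 5 copies were highest in replicate 1 and lowest in replicate 2. LHCB1.3 alone took 67.9%, 68.4% and 70.0% of the LHCB1 counts, and LHCB1.1 took 1.17%, 1.15% and 1.11%.

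Between LHCB1 copies the split of counts was steadier than the level of either copy, whether or not the copies were neighbours. LHCB1.3 and LHCB1.4, on different chromosomes, had a log2 ratio SD of 0.06, against 0.08 and 0.07 for their log2 CPM. PSAD1 and PSAD2, also on different chromosomes, had 0.03 against 0.05 and 0.05. The neighbours LHCB2.1 and LHCB2.2 had 0.13, above the 0.05 of LHCB2.1 and below the 0.17 of LHCB2.2. A steadier split was not common to all copy pairs. For LHCB2.2 and LHCB2.3 the ratio SD was above that of both copies, at 0.24 against 0.17 and 0.14. The same held for LHCB4.2 and LHCB4.3, at 0.15 against 0.08 and 0.13. It also held for PETE2 and PETE1 (0.109 against 0.108 and 0.0437) and for FNR2 and FNR1 (0.03 against 0.01 and 0.02). LHCB1.2 collected 4.15, 4.05 and 4.05 times the counts of LHCB1.1, a log2 ratio of 2.03 ± 0.02, while the log2 CPM of those copies varied between libraries with SDs of 0.11 and 0.09. The ratio of LHCB1.5 to LHCB1.4 was 2.73, 2.66 and 2.64, and that of LHCB1.3 to LHCB1.1 was 58.2, 59.4 and 63.1, log2 ratios of 1.42 ± 0.03 and 5.91 ± 0.06. In the gene table LHCB1.2, LHCB1.1 and LHCB1.3 lie in a row on chromosome 1 with no other protein-coding gene between neighbours, and LHCB1.4 and LHCB1.5 are neighbours on chromosome 2. The copies are close relatives, and the handling of reads that match several of them is not stated. Part of the split between copies, and the size of their sum, may follow from the counting. Neither was tested.

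LHCB2, which with LHCB1 is phosphorylated when energy is shifted between the photosystems, collected few counts. LHCB2.1 (AT2G05100) stood at 70.8, 67.8 and 66.6 CPM, LHCB2.2 (AT2G05070) at 58.2, 46.7 and 49.1 CPM and LHCB2.3 (AT3G27690) at 12.5, 13.9 and 11.5 CPM. Summed, the 3 copies reached 132 ± 7.91 CPM against 10271 ± 566 CPM for the 5 LHCB1 copies. LHCB2.1 and LHCB2.2 did not overlap and differed by a log2 count ratio of 0.42 ± 0.13, the same direction in 3 of 3 libraries. LHCB2.1 and LHCB2.2 are neighbours on chromosome 2. The limit on copies given for LHCB1 applies to the LHCB2 copies and to their sum as well. The gap between the LHCB1 and LHCB2 sums is therefore a gap in counts collected. LHCB2.3 also overlaps AT3G27700 in the gene table, a gene that stood at 38.9 ± 2.08 CPM, above LHCB2.3 itself. LHCB3 (AT5G54270), which has a single copy, stood at 261, 242 and 214 CPM.

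The monomeric antenna proteins CP29 (LHCB4), CP26 (LHCB5) and CP24 (LHCB6) link the LHCII trimers to the photosystem II core. LHCB4.1 (AT5G01530) stood at 2194, 1924 and 1948 CPM, LHCB4.2 (AT3G08940) at 250, 234 and 224 CPM, and the minor form LHCB4.3 (AT2G40100) at 25.4, 21.7 and 25.4 CPM. The 3 genes thus formed separate steps in every library, with no overlap. LHCB4.1 took 88.6 ± 0.290% of the LHCB4 counts, LHCB4.2 10.3 ± 0.332% and LHCB4.3 1.06 ± 0.0844%. LHCB5 (AT4G10340) varied little, at 1389, 1328 and 1337 CPM. LHCB6 (AT1G15820) stood at 567, 485 and 509 CPM, with replicate 1 the highest. LHCB7 (AT1G76570), a rarely detected relative, stood at 17.0, 17.4 and 18.8 CPM, the only photosystem II antenna gene lowest in replicate 1.

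In the photosystem I antenna, LHCA1 to LHCA4 form the belt of the complex and LHCA5 and LHCA6 are minor proteins that attach photosystem I to the NADH dehydrogenase-like (NDH) complex. LHCA2 (AT3G61470) stood at 2236, 1988 and 2180 CPM and LHCA3 (AT1G61520) at 1649, 1469 and 1573 CPM. LHCA1 (AT3G54890) stood at 1311, 1180 and 1230 CPM and LHCA4 (AT3G47470) at 708, 685 and 652 CPM. The belt genes kept this order by counts in each library, without overlap. LHCA5 (AT1G45474) at 159, 147 and 138 CPM and LHCA6 (AT1G19150) at 157, 157 and 155 CPM overlapped each other, with means closer together than 1 SD of LHCA5. They took 2.50 ± 0.149% and 2.65 ± 0.139% of the counts of the 6 LHCA genes.

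Taken over both antennae, the 4 minor forms LHCA5, LHCA6, LHCB4.3 and LHCB7 had a median of 86.2 CPM and the other 49 genes a median of 831 CPM. The minor forms collected 0.628 ± 0.0179% of the counts of the 53 genes. By counts they did not form a level of their own, since LHCB2.3 lay below all of them, LHCB2.1 and LHCB2.2 lay between LHCB4.3 and LHCA5, and LHCA5 and LHCA6 lay above LHCB1.1 and PETE1.

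**Figure D2:**
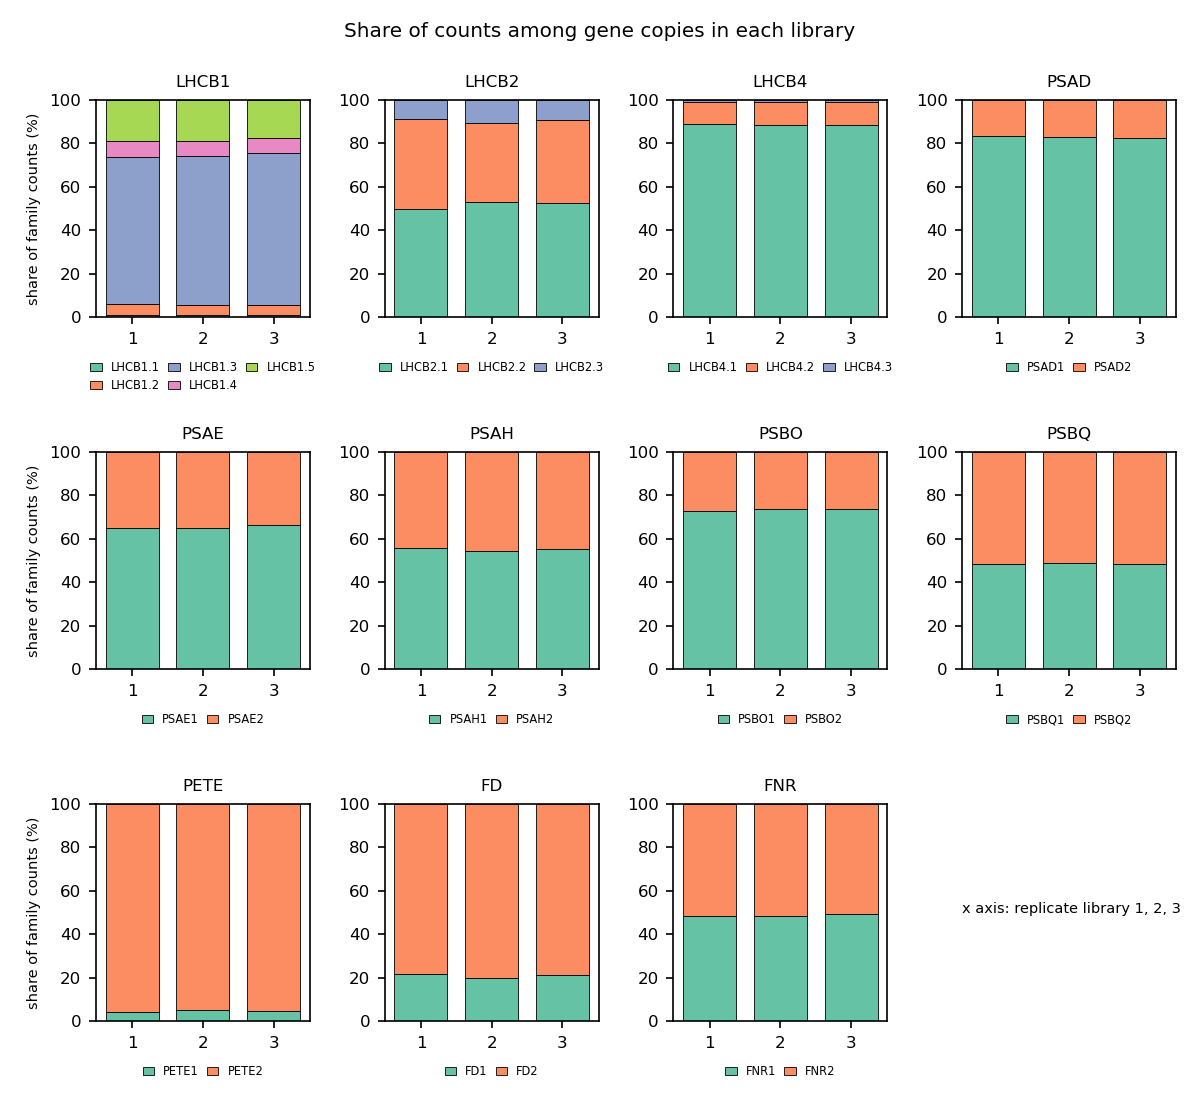
Share of each family's counts taken by each copy, in percent, as stacked bars for replicates 1, 2 and 3. LHCB1.3 takes 67.9 to 70.0% of LHCB1, LHCB4.1 88.3 to 88.8% of LHCB4 and PETE2 95.1 to 95.7% of PETE, while PSBQ and FNR split nearly evenly.

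Photosystem I core subunits covered a narrower range, 235 to 1494 CPM over 12 genes. PSAF (AT1G31330), part of the plastocyanin docking site, stood at 1523, 1468 and 1492 CPM, with a coefficient of variation of 1.82%. PSAL (AT4G12800), which lies on the side where LHCII docks, stood at 1539, 1314 and 1386 CPM, and PSAG (AT1G55670), which sits beside the LHCA belt, at 1420, 1311 and 1405 CPM. PSAL overlapped both of the others across libraries, while PSAF and PSAG did not overlap. PSAO (AT1G08380), which takes part in docking LHCII, at 831 ± 48.0 CPM, PSAK (AT1G30380) at 636 ± 56.6 CPM and PSAN (AT5G64040), a lumenal subunit, at 572 ± 38.3 CPM collected fewer counts.

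Each of the PSAD, PSAE and PSAH subunits has a pair of nuclear copies, with PSAD and PSAE forming part of the stromal docking site for ferredoxin. PSAD1 (AT4G02770) stood at 1167, 1104 and 1169 CPM and PSAD2 (AT1G03130) at 234, 227 and 245 CPM. PSAD1 thus collected 4.98, 4.86 and 4.78 times the counts of PSAD2, a log2 ratio of 2.28 ± 0.03. For PSAE the split was less uneven, with PSAE1 (AT4G28750) at 683, 601 and 631 CPM and PSAE2 (AT2G20260) at 365, 326 and 318 CPM. PSAH1 (AT3G16140) and PSAH2 (AT1G52230) were the closest of the 3 pairs, at 481, 438 and 441 CPM and at 381, 366 and 359 CPM, a log2 ratio of 0.30 ± 0.04. All 3 pairs had the same copy ahead in 3 of 3 libraries, but an exact two-sided sign-flip test over 3 libraries cannot give a p under 0.25, here and for every pair below.

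The extrinsic proteins of photosystem II shield and stabilise the manganese cluster that splits water. PSBO1 (AT5G66570), the main form of the largest extrinsic protein, stood at 3357, 3055 and 3248 CPM and PSBO2 (AT3G50820) at 1243, 1077 and 1169 CPM. Counts of PSBO1 were 2.70, 2.84 and 2.78 times those of PSBO2. PSBP1 (AT1G06680) stood at 2048, 1934 and 1922 CPM. PSBQ1 (AT4G21280, PSBQA in the gene table) at 689, 658 and 630 CPM and PSBQ2 (AT4G05180) at 731, 693 and 665 CPM overlapped in level, yet their count ratio was 1.06, 1.05 and 1.06, the tightest of the 20 copy ratios computed. PSBR (AT1G79040), which helps bind PSBP, was the highest photosystem II subunit at 4152, 3700 and 4008 CPM.

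The remaining photosystem II subunits stood between 589 and 1097 CPM. PSBS (AT1G44575, NPQ4 in the gene table), the sensor of lumen acidity in energy dissipation, stood at 1109, 1061 and 1121 CPM. The small membrane subunits PSBW (AT2G30570) and PSBX (AT2G06520) followed the same course, at 948, 839 and 755 CPM and at 929, 826 and 754 CPM, lowest in replicate 3. PSBY (AT1G67740) differed from them in its course, at 613, 527 and 627 CPM, lowest in replicate 2 and highest in replicate 3. PSBTn (AT3G21055) stood at 836, 726 and 769 CPM.

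Electron carriers and the ATP synthase included the steadiest of the 53 genes. FNR2 (AT1G20020), a leaf ferredoxin-NADP+ reductase, stood at 1266, 1252 and 1250 CPM and FNR1 (AT5G66190), which tethers the reductase to the thylakoid, at 1182, 1174 and 1212 CPM. Together the FNR pair varied by 0.748%. ATPC1 (AT4G04640), the γ subunit through which the ATP synthase is redox-regulated, stood at 1142, 1173 and 1151 CPM, and PETC (AT4G03280), the Rieske protein of cytochrome b6f, at 1151, 1107 and 1108 CPM. ATPD (AT4G09650), the δ subunit, stood at 590, 537 and 578 CPM. The main forms of plastocyanin and ferredoxin varied more, with coefficients of variation of 7.61% for PETE2 and 6.16% for FD2 against 0.667% for FNR2 and 4.88% for ATPD. PETE2 (AT1G20340, DRT112 in the gene table) stood at 2395, 2120 and 2090 CPM and PETE1 (AT1G76100) at 107, 110 and 104 CPM. PETE2 therefore collected 22.3, 19.3 and 20.2 times the counts of PETE1, the most uneven of the 8 subunits with 2 copies. FD2 (AT1G60950, FED A in the gene table), the main leaf ferredoxin, stood at 1321, 1312 and 1181 CPM and FD1 (AT1G10960) at 368, 327 and 319 CPM, with a count ratio of 3.59, 4.02 and 3.70.

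Spread between libraries was set against that of genes of the same level. Under edgeR's goodness-of-fit test with the trended dispersion, 0 of 53 had an adjusted p below 0.05, against 0.148% of the 18915 genes tested, a background so low that a count of 0 says nothing particular about these genes. At an unadjusted p below 0.05 there were 6, or 11.3%, against 4.61% of genes tested. In that edgeR test, fitted across all genes, these were PSBW (unadjusted p = 0.00272), PSBX (0.00693), LHCB3 (0.0169), PSBY (0.0204), PSAK (0.0305) and LHCB2.2 (0.0421). The smallest adjusted p by edgeR was 0.505, for PSBW, so none of the 6 held after adjustment. With the dispersion set to 0 in the same edgeR test, 46 of the 53 varied beyond counting error, against 32.8% of genes tested and 60.5% of genes at 100 CPM and over. The 7 that did not were LHCA6, LHCB2.1, LHCB2.3, LHCB4.3, LHCB7, PETE1 and FNR2. The count beyond counting error was 29 without replicate 1, 38 without replicate 2 and 42 without replicate 3. Over all genes tested it fell from 6197 to 2964, 3862 and 3172 in the same order. With the dispersion at 0 the test calls genes more readily at high counts, and neither background matches the level of the 53 genes. Their median was 710 CPM and 22 of them reached 1000 CPM, while 79 of the 1983 genes at 100 CPM and over did so. A background of matched level was not computed.

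**Figure D3:**
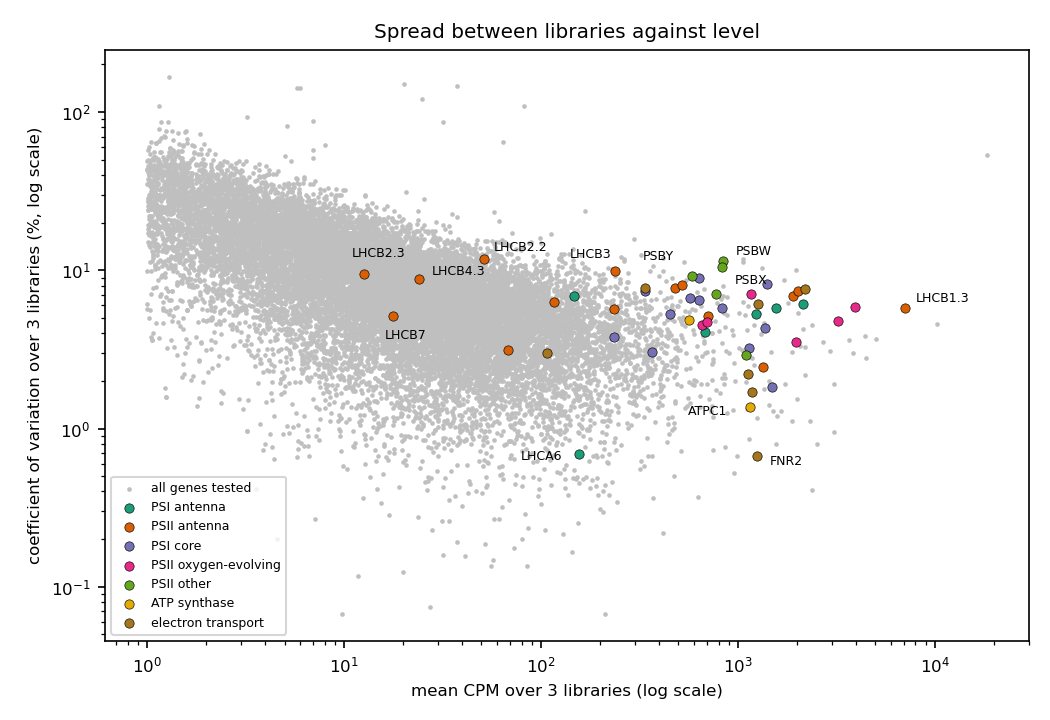
Coefficient of variation over the 3 libraries against mean CPM, both on log axes, for the 18915 genes tested in grey and the 53 genes in colour by role. LHCB2.2 at 11.8% and PSBW at 11.4% are the most variable of the 53, and FNR2 at 0.667% and LHCA6 at 0.692% the least.

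The coefficient of variation had a median of 5.77% over the 53 genes, beside 3.61% over the 1983 genes at 100 CPM and over and 3.29% over the 79 nuclear genes at 1000 CPM and over. These backgrounds include members, 48 of the 1983 genes and 22 of the 79. By role the medians were 9.17% for the small and regulatory photosystem II subunits, 6.84% for the photosystem II antenna, 5.54% for the photosystem I core, 5.53% for the photosystem I antenna, 4.74% for the oxygen-evolving subunits, 3.13% for the ATP synthase pair and 3.02% for the electron carriers. These roles hold 2 to 15 genes each, and differences between roles were not tested.

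The difference between libraries ran largely one way. Replicate 1 was the highest library for 42 of the 53 genes, against 33.3% of genes tested and 38.7% of genes at 100 CPM and over. The median log2 difference of replicate 1 from the mean of the others was 0.11, beside 0.01 for all genes at 100 CPM and over. Replicate 2 was the highest for 4 genes and replicate 3 for 7, against 33.7% and 33.0% of genes tested and 23.8% and 37.5% of genes at 100 CPM and over. The lowest library was replicate 2 for 29 genes, replicate 3 for 22 and replicate 1 for 2, against 38.5%, 30.5% and 31.1% of genes at 100 CPM and over. Part of this direction was already known from earlier results on these libraries, and the genes share the same 3 libraries, so the count is given as a description.

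By role the counts were as follows. All 6 oxygen-evolving and associated subunits were highest in replicate 1, with log2 differences of 0.09 to 0.15, as were 12 of 15 photosystem II antenna genes, 10 of 12 photosystem I core genes and 5 of 6 photosystem I antenna genes. Of the electron carriers 5 of 7 were highest in replicate 1, of the remaining photosystem II subunits 3 of 5 and of the ATP synthase pair 1 of 2. These groups are small, and differences between them were not tested. Among the photosystem II antenna genes LHCB2.2 had the largest difference, 0.28. PSBW and PSBX followed at 0.25 and 0.23. The 5 genes in which replicate 1 was not above the mean of the others were LHCB2.3, LHCB7, PSAD2, ATPC1 and FNR1, with log2 differences of -0.02, -0.08, -0.01, -0.02 and -0.01. In 6 of the 8 subunits with 2 copies both copies were highest in the same library, PSAD in replicate 3 and PSAE, PSAH, PSBO, PSBQ and FD in replicate 1, a count to be read beside the 42 of all 53 genes that were highest in replicate 1. In PETE and FNR the copies differed.

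**Figure D4:**
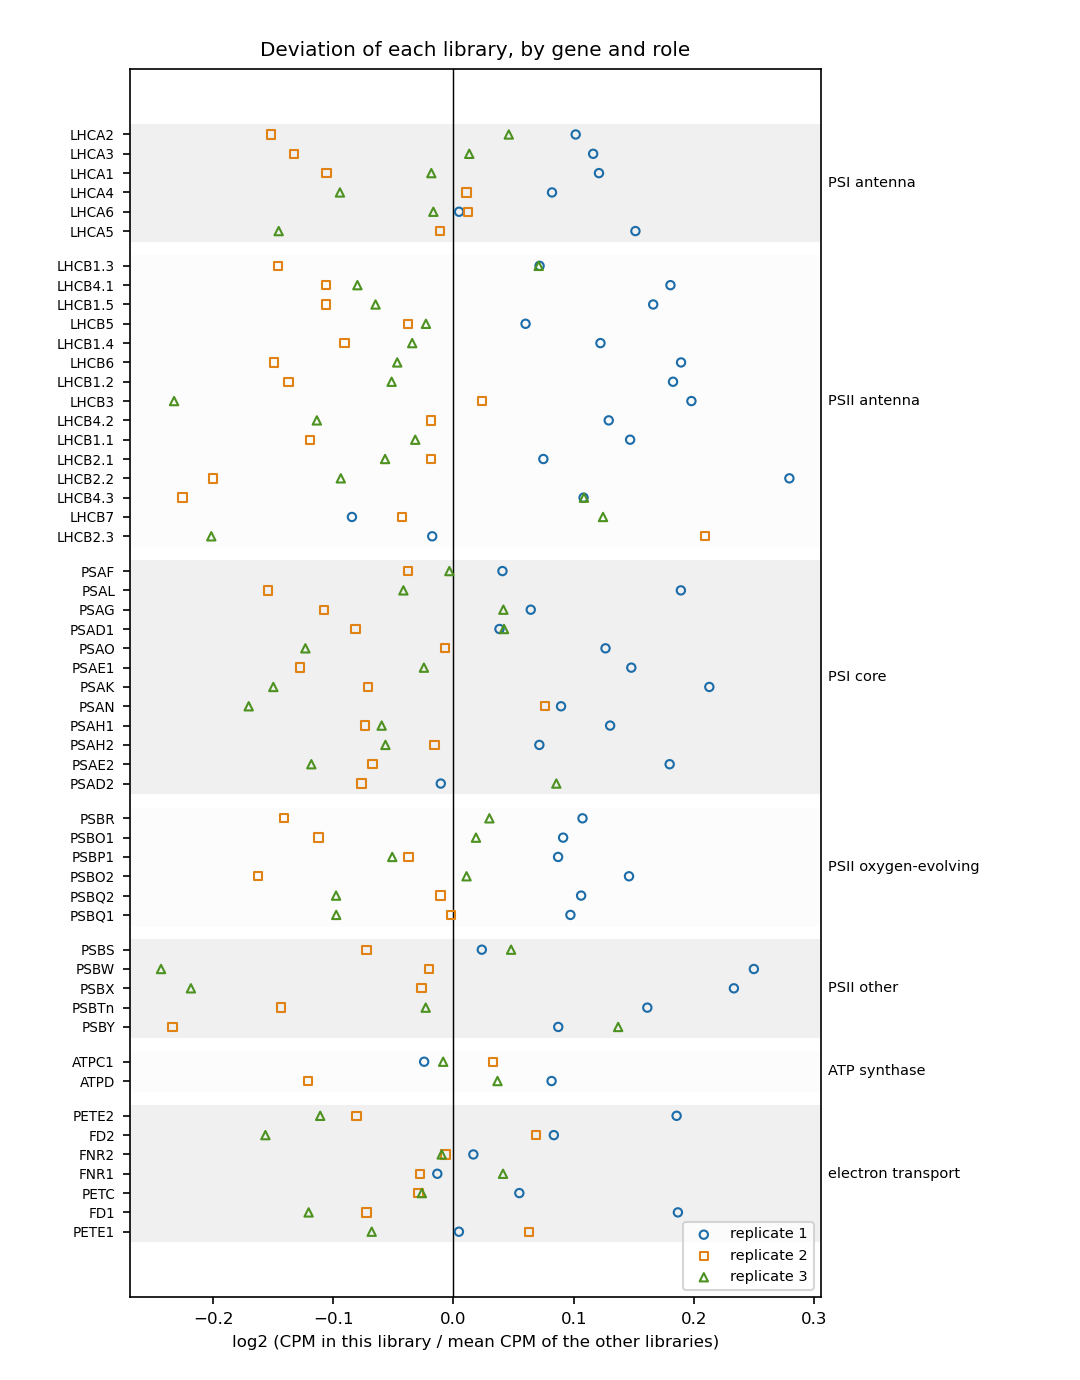
Log2 ratio of CPM in each library to the mean of the other libraries, for each of the 53 genes by role. Replicate 1 (circles) lies to the right of 0 for 48 genes, replicate 3 (triangles) is farthest left for PSBW, PSBX and LHCB3, and the points of FNR2, PETC and ATPC1 stay close to 0.

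Some other features of the libraries moved with this direction and some did not. The summed level of the green tissue markers RBCS1A, RCA and CA1 was 19352, 18280 and 18424 CPM in replicates 1, 2 and 3, and 2 of these 3 genes were highest in replicate 1. The sum of the 4 root markers was nearly level, at 2455, 2470 and 2476 CPM, but PYK10 made up most of it. PYK10 stood at 2374, 2388 and 2393 CPM, PHT1;1 at 41.6, 43.1 and 43.1 CPM and SCR at 39.1, 38.3 and 40.2 CPM. WOX5 had 18, 12 and 0 counts. The 3 seed markers summed to 25.7, 22.7 and 27.5 CPM and the 3 pollen markers to 41.0, 37.3 and 42.6 CPM, both highest in replicate 3. TUA1 made up nearly all of the pollen sum. The phloem gene SUC2 stood at 125, 126 and 107 CPM and the guard cell gene KAT1 at 17.5, 15.6 and 19.6 CPM. The rRNA share was lowest in replicate 1, which was also the deepest library. With library totals taken without the rRNA genes, which rescales all genes of a library alike, replicate 1 was the highest for 38 of the 53 genes and for 32.6% of genes at 100 CPM and over. The part of tissue composition and depth in the result was not tested.

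Related genes outside the list were mostly less counted. Over 53 further genes of thylakoid electron flow, antenna assembly and their regulation, 52 reached a mean of 1 CPM, 31 reached 100 CPM and 0 reached 1000 CPM, beside the same 56.8%, 5.95% and 0.237% of nuclear genes. Their median was 116 CPM, and the edgeR test with the trended dispersion called 0 of them, against 0.148% of genes tested. At an unadjusted p below 0.05 there were 3, against 4.61% of genes tested. These were OHP1, SEP1 and CURT1A (unadjusted p = 0.0327 by edgeR for CURT1A). Replicate 1 was the highest library for 31 of these related genes, replicate 2 for 9 and replicate 3 for 13. For replicate 1 the share was 33.3% of genes tested and 38.7% of genes at 100 CPM and over. The lean to replicate 1 was thus not particular to the listed members. The 16 nuclear genes of the NDH complex, to which LHCA5 and LHCA6 attach photosystem I, had a median of 133 CPM. Highest and lowest of these 16 were NDHL at 274 ± 2.98, PNSB1 at 261 ± 9.74, PNSL3 at 73.3 ± 4.16 and NDHT at 33.5 ± 2.34 CPM. LHCA5 and LHCA6, at 148 ± 10.2 and 157 ± 1.08 CPM, lay within that wide range of counts, which is not a match of transcript numbers.

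**Figure D5:**
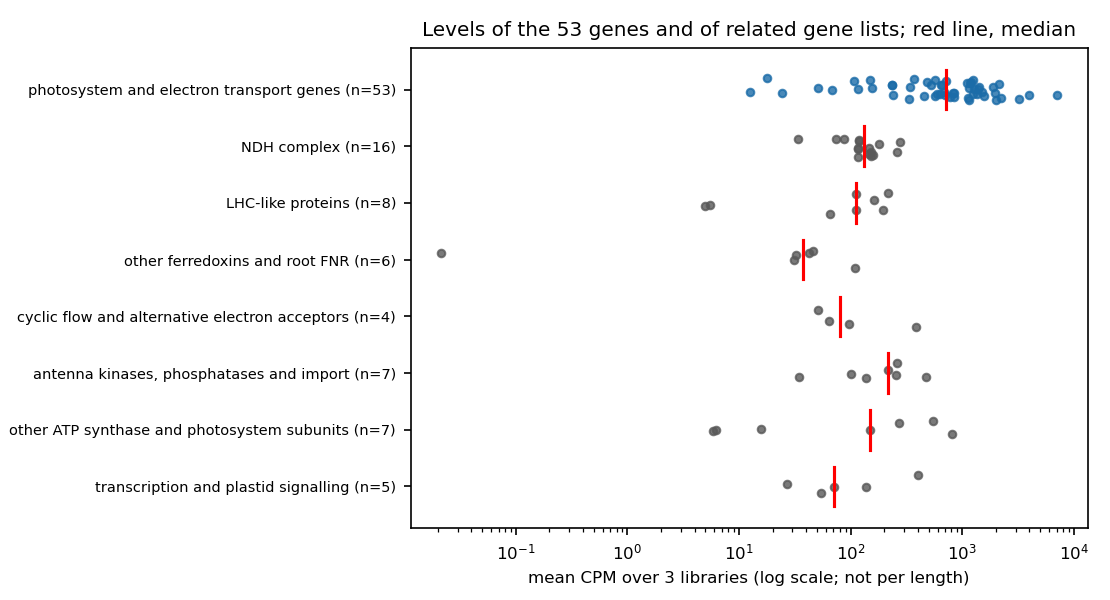
Mean CPM on a log axis for the 53 genes and for 7 lists of related genes, with the median of each list as a red line. The median is 710 CPM for the 53 genes and between 37.3 and 216 CPM for the related lists.

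Among the LHC-like proteins, distant relatives of the antenna, LIL3:2 and LIL3:1, which act in chlorophyll synthesis, stood at 215 ± 12.3 and 196 ± 2.69 CPM. The early light-induced genes ELIP2 and ELIP1, known to respond to light stress, stood at 5.53 ± 0.397 and 4.93 ± 0.805 CPM, lower in counts than LHCB2.3. OHP1 (OHP in the gene table; 65.1 ± 9.59 CPM) and SEP1 (163 ± 18.2 CPM) had unadjusted p of 0.00277 and 0.00925 by edgeR and adjusted p of 0.506 and 0.775. Both were highest in replicate 1, as were 31 of the 53 related genes and 42 of the 53 members.

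Further ferredoxin genes and the root reductase genes collected fewer counts than the leaf forms. FDC1 and FDC2, plastid ferredoxins with an extended C-terminus, stood at 110 ± 2.12 and 45.8 ± 1.08 CPM. The root forms RFNR1 and RFNR2 stood at 32.2 ± 2.53 and 31.0 ± 0.580 CPM, against a sum of 2445 ± 18.3 CPM for FNR1 and FNR2. FD3, the ferredoxin of non-green plastids, stood at 42.3 ± 3.39 CPM, and FD4 had 2, 0 and 0 counts, no more in any library than the 3 counts that a listed 0 allows. In the cyclic pathway PGRL1A stood at 385 ± 25.4 CPM and PGR5 at 95.7 ± 9.29 CPM, and PGRL1B (63.4 ± 2.73 CPM) and the plastid terminal oxidase PTOX (IM in the gene table; 51.0 ± 2.94 CPM) had the fewest counts.

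Of the genes that modify or insert antenna proteins, ALB3, the thylakoid insertase, stood at 473 ± 2.38 CPM and TAP38, the phosphatase that reverses LHCII phosphorylation, at 258 ± 9.23 CPM. Its opposing kinase STN7 stood at 99.8 ± 2.86 CPM, and PBCP, the phosphatase of the photosystem II core, at 34.6 ± 2.48 CPM. STN7 and PBCP were the lowest of that list. Among further subunits, the gene entered as ATPG (AT4G32260, PDE334 in the gene table) stood at 806 ± 33.2 CPM and CURT1A, which bends thylakoid margins, at 549 ± 47.4 CPM, while PSBP2 and ATPC2 stood at 5.87 ± 1.26 and 6.21 ± 0.527 CPM. Thus the second copies of PSBP and ATPC collected a small fraction of the 1968 ± 69.5 and 1155 ± 15.8 CPM of PSBP1 and ATPC1. GUN1, of plastid-to-nucleus signalling, stood at 400 ± 16.2 CPM. GLK1 (GPRI1 in the gene table), a transcription factor that activates antenna genes, stood at 136 ± 6.67 CPM, its relative GLK2 at 54.7 ± 3.86 CPM and the light-signalling factor HY5 at 26.6 ± 0.244 CPM.

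Reads of overlapping neighbours are a further limit for single genes. Of the 53 genes, 19 overlap another gene annotated in the gene table, and 18 overlap one that is in the count table. The library kit was stranded, per the labels' protocols, but the strand setting of the counting is not given. The most counted of these neighbours was TMN1 (AT1G10950), which overlaps FD1, at 153 ± 8.41 CPM against 338 ± 26.0 CPM for FD1. The neighbours of LHCB1.3 (NRPA2, 66.1 ± 4.52 CPM) and PSBR (RECA1, 40.4 ± 0.617 CPM) had far fewer counts than those genes.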

How the data were processed

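The authors deposited raw counts per gene for 3 RNA libraries. Per the submitters' processing notes, featureCounts, HISAT2, cutadapt, deepTools 3.5.1, Bowtie2 2.4.5 and SAMtools 1.13 were used on TAIR10; their roles and order are not stated. Not given in the sources used here are the annotation release and the handling of strand, read pairs and multi-mapping reads. CPM were computed from the deposited counts with edgeR 4.0.16 (R 4.3.3) and TMM factors of 0.989 to 1.01. Spread between libraries was tested with edgeR's goodness of fit, on a model with an intercept alone (2 degrees of freedom, Benjamini-Hochberg over the 18915 genes with a mean of at least 1 CPM, threshold 0.05). The test was also run on counts simulated with the trended dispersion of these data, which the test itself assumes. Such a run cannot show whether that dispersion suits the real libraries. Alternatives used DESeq2 1.42.0 size factors, among others. Genes were to be compared per kb of coding length, but no such lengths were used here, so copies are compared by counts. Symbols, neighbours and overlaps were read from RefSeq's gene table for TAIR10.1, which held 32835 of the 33602 identifiers and a name for all 53 genes. Intervals and floors cover counting error only. Members and lists were chosen with earlier results of these data known. All 53 members were eligible for naming, as were the highest 2 and lowest 2 of each related list and any gene called. FD3, RFNR1, OHP1, SEP1 and the overlapping neighbours lie outside that rule and were named after their values were seen.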

Additional observations from a re-analysis of the deposited data

How the results depend on the processing

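Under DESeq2 size factors, library totals without TMM, library totals without the rRNA genes (for these calls the latter was chosen after seeing the data), no filter on low counts, halved counts (in case each read pair was counted as 2 reads) and leaving out each replicate, 0 of 53 genes were called for spread beyond genes of their level. The number beyond counting error was 46 and ranged from 29 to 42 when 1 replicate was left out, lowest without replicate 1. With 2 libraries in place of 3 the test has less to work with. It was 41 on halved counts. Over all genes the trended test called 28, and 6 without replicate 3 and 19 without replicate 1. Beyond counting error 6197 genes were called, against 1222 on halved counts and 2964, 3862 and 3172 without replicate 1, 2 and 3. The median level was 689 to 720 CPM without 1 replicate. Leaving out 1 replicate could not turn the direction of a copy ratio, each of which has 1 sign in all libraries, nor lower the number of genes highest in replicate 1 while replicate 1 stays in, so neither is a check of stability. Levels per kb of gene span were not run, since the gene table names another assembly than the authors' build, and neither were those per kb of coding length. No paired analysis was possible because the RNA samples form 1 group. Groups of 3 are too small for a check of single outlying libraries.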
